A study of Mus musculus with 12 samples.

Results

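Sarcomere and Z-disc genes of the left ventricle (LV) were examined in offspring of diabetic and non-diabetic mouse pregnancies. The 32 genes were chosen by name, for the place of their proteins in the contractile apparatus of the cardiac myocyte, and the rule uses no measured value, although the list was drawn up with earlier results of these data known. All 32 were present among the 46983 genes of the count tables. All 32 also passed the filter on low counts, which left 14706 genes for testing, and the lowest count of any of them in any library was 2218, for *Fbxo32*. They fall into 5 groups by role. The thick filament and M-band are represented by 8 genes (*Myh6*, *Myl2*, *Myl3*, *Mybpc3*, *Mylk3*, *Ttn*, *Myom1* and *Myom2*) and the thin filament by 8 (*Actc1*, *Tpm1*, *Tnnt2*, *Tnni3*, *Tnnc1*, *Lmod2*, *Tmod1* and *Nebl*). The Z-disc group holds 9 genes (*Actn2*, *Tcap*, *Ldb3*, *Csrp3*, *Myoz2*, *Mypn*, *Nexn*, *Pdlim5* and *Flnc*). A group of 4 covers the intermediate filament, its chaperone and proteins of the intercalated disc (*Des*, *Cryab*, *Xirp1* and *Xirp2*), and 3 genes act in assembly and turnover (*Smyd1*, *Trim63* and *Fbxo32*).

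The sarcomere is the contractile unit of striated muscle. Myosin thick filaments, joined at the M-band, slide along actin thin filaments anchored at the Z-disc, and calcium binding to troponin switches the thin filament on. Titin spans from Z-disc to M-band and sets passive stiffness, while phosphorylation of the regulatory light chain by cardiac myosin light chain kinase, the product of *Mylk3*, tunes force. Mutations in many of these genes cause inherited cardiomyopathy.

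The study crossed a maternal condition with a genotype. *Wt* FVB females, made diabetic with streptozotocin or left non-diabetic, were mated with males heterozygous for *Hif1a* tm1jhu, a global null allele of the oxygen-regulated transcription factor subunit HIF-1α kept on the FVB background, so the dams carried no mutant allele and each pregnancy gave *Wt* and *Hif1a*+/- offspring. LVs were taken at 12 weeks, and the offspring themselves were not made diabetic. There were 12 libraries, 3 in each of 4 groups: unexposed *Wt*, diabetes-exposed *Wt*, unexposed *Hif1a*+/- and diabetes-exposed *Hif1a*+/-, where exposed and unexposed refer to the pregnancy. Animals came from several litters, and litters are not given per library, so littermates could not be accounted for. P values set group differences against the spread between animals of the same group, with the animals treated as independent.

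Total counts ran from 16132442 to 39812939 per library. Pairs of libraries of a group differed by more than counting noise in every case. Total RNA of a whole LV was used, so fewer cells of a type and less RNA per cell cannot be told apart. The mutant allele could not be checked from these tags, which lie at the 3′ ends of transcripts: *Hif1a* had a CPM (its count scaled to a common library size) of 55.7, 57.0 and 71.8 in unexposed *Wt*, 47.9, 59.3 and 58.6 in exposed *Wt*, 89.4, 78.8 and 88.9 in unexposed *Hif1a*+/- and 70.5, 64.8 and 81.5 in exposed *Hif1a*+/-. Its tags were thus more numerous in the heterozygotes, by 0.43 on the log2 scale (SE 0.09) over both pregnancies, with an edgeR adjusted P of 0.596 and a DESeq2 adjusted P of 0.0315. Beyond this, 2 libraries stood apart. Unexposed *Wt* library 25 had summed red cell transcripts of 7323 CPM against 185 to 1771 in the others. Exposed *Hif1a*+/- library 72 had an *Xist* count of 3599, where the others had 5 to 176, and a *Ddx3y* count of 8, where the others had 1539 to 3108. The sample labels give all animals as female, while the study's text describes males. By these counts library 72 came from a female and the others from males, so neither account holds for every animal. The exposed *Hif1a*+/- group thus holds both sexes, and sex was not a term in the fits. The effects of leaving out libraries 25 and 72 are given beside the results that rest on them. Atrial markers summed to 25.2 to 70.8 CPM and skeletal muscle markers to 21.1 to 52.3 CPM, and *Bmp10*, *Myh1*, *Myh2*, *Myh4* and *Actn3* were at 0 in at least 1 library, while 14 myocyte genes from outside the sarcomere summed to 53082 to 63813 CPM.

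The 32 genes took a nearly constant share of each library. Together they accounted for 12.2% to 13.3% of all counts (median 12.8%). Their share averaged 12.7% ± 0.522 (SD, n = 3) in unexposed *Wt*, 12.8% ± 0.246 in exposed *Wt*, 12.8% ± 0.319 in unexposed *Hif1a*+/- and 12.9% ± 0.208 in exposed *Hif1a*+/-. All 4 means lie within 1 SD of unexposed *Wt*. Thick filament and M-band genes took 5.76% to 6.29% of counts and thin filament genes 4.32% to 5.11%. Z-disc genes took 1.05% to 1.22%, the intermediate filament and intercalated disc group 0.580% to 0.722% and the 3 assembly and turnover genes 0.101% to 0.117%. α-Myosin heavy chain, *Myh6*, was the largest single contributor by counts, at a median of 3.01% of a library. Such shares count tags per transcript molecule caught at its 3′ end and were not scaled by length.

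**Figure D1:**
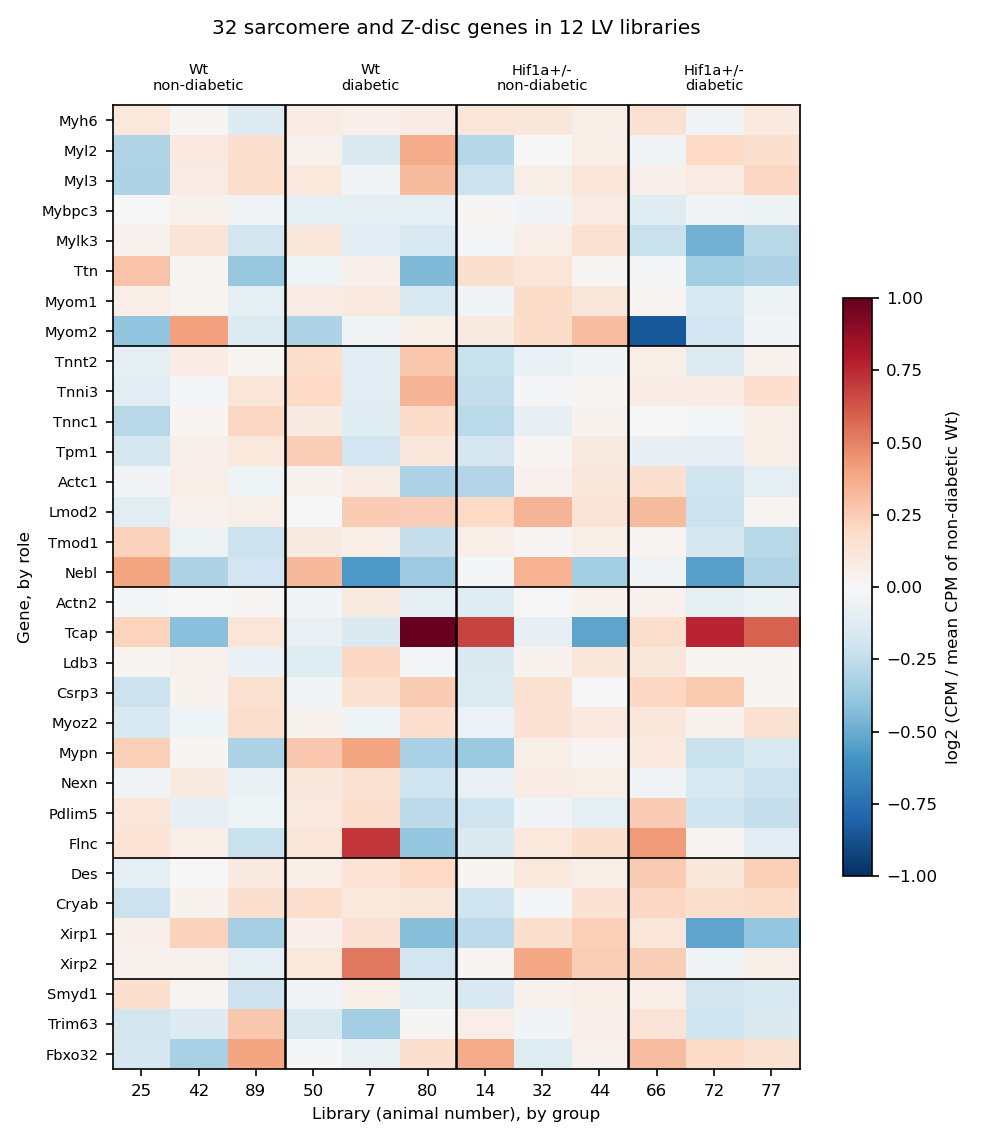
Heat map of the 32 genes (rows, grouped by role) in the 12 libraries (columns, grouped by genotype and pregnancy). Colour gives the log2 of CPM divided by the gene's mean CPM in unexposed Wt. No column block stands out over all genes, *Mylk3* is low in the 3 exposed Hif1a+/- libraries, and *Tcap* varies most, from 903 to 2857 CPM.

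Variation between animals of the same group differed widely from gene to gene. The within-group SD on the log2 scale had a median of 0.164 over the 32 genes, close to 0.159 over all 14706 genes tested and above 0.132 over the 949 genes with a mean CPM at least that of the lowest member. *Mybpc3*, encoding cardiac myosin-binding protein C, was the steadiest at 0.0425, followed by the Z-disc crosslinker *Actn2* at 0.0683 and by *Des* at 0.0724. *Tcap*, encoding telethonin, was the most variable at 0.523, with values 3.17 times apart between the lowest and highest library, and *Nebl* (0.369), *Flnc* (0.331) and *Myom2* (0.319) followed it. A comparison of 2 groups therefore had 95% intervals with half-widths on the log2 scale from 0.17 for *Mybpc3* to 0.74 for *Tcap*, with a median of 0.27.

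None of the 32 genes passed the adjusted P threshold of 0.1 in edgeR in any of the 8 comparisons made, and neither did any other gene (0.0% of 14706). The count of members at an unadjusted edgeR P under 0.05 was read against the share of all genes at that level, termed the unadjusted level. Exposure in *Wt* gave 0 members where 2.78% of all genes reached it, and genotype in unexposed animals gave 0 where 0.959% did. Exposure in *Hif1a*+/- gave 2 members, *Mylk3* and *Myom2*, both lower, which is 6.25% of 32 where 12.0% of all genes reached that level. Exposed *Hif1a*+/- against exposed *Wt* gave 1, *Mylk3*, where 5.35% of all genes did, and exposed *Hif1a*+/- against unexposed *Wt* gave 2, *Mylk3* lower and *Des* higher, where 8.85% did. The genotype by pregnancy interaction gave 1, *Mylk3* (2.52% of all genes). Exposure averaged over genotypes gave 2, *Mylk3* and *Des* (11.3%), and genotype averaged over pregnancies gave 0 (2.69%). The members' share was below that of all genes in 7 comparisons and above it in the interaction alone. With no filter on low counts, edgeR called *Mylk3* and *Myom2* under exposure in *Hif1a*+/-, where 2.19% of all genes were called, *Tcap* for exposed *Hif1a*+/- against unexposed *Wt* (1.64% of all genes), and *Tcap* and *Myom2* under exposure averaged over genotypes (2.19%).

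DESeq2, which the study used, called 1 member at an adjusted P under 0.1. This was *Mylk3* under exposure in *Hif1a*+/-, where 1.44% of all genes were called. It called 0 members in the other 7 comparisons, with 0.0148% of all genes called for exposure in *Wt*, 0.00369% for genotype in unexposed animals, 0.155% for exposed *Hif1a*+/- against exposed *Wt*, 0.454% for exposed *Hif1a*+/- against unexposed *Wt*, 1.45% for exposure over both genotypes, 0.0259% for genotype over both pregnancies and 0.0% for the interaction. At an unadjusted DESeq2 P under 0.05 there were 2 members under exposure in *Hif1a*+/- (11.3% of the genes that edgeR also tested), 2 for exposed *Hif1a*+/- against unexposed *Wt* (8.21%), 1 against exposed *Wt* (4.97%) and 1 in the interaction (2.27%). There were 0 under exposure in *Wt* (2.4%), for genotype in unexposed animals (0.667%) and for genotype over both pregnancies (2.29%). Under exposure over both genotypes there were 6 (*Cryab*, *Des*, *Mybpc3*, *Mylk3*, *Myom2* and *Tnni3*), which is 18.8% of 32 where 10.8% of genes reached that level. The limma-voom test also called *Mylk3* alone under exposure in *Hif1a*+/- (adjusted P = 0.0429), where it called 6.37% of all genes. At an unadjusted limma-voom P under 0.05 there were 9 members in that comparison, 7 for exposed *Hif1a*+/- against unexposed *Wt* and 2 against exposed *Wt*. There were 8 under exposure over both genotypes, 2 for genotype in unexposed animals and 1 in the interaction. Exposure in *Wt* and genotype over both pregnancies gave 0. The share of all genes at that limma-voom level is not given, so these counts cannot be read against it.

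Cardiac myosin light chain kinase showed the most regular difference. *Mylk3* (ENSMUSG00000031698, chr8:85324303-85386345, minus strand, GRCm38) had 756, 801 and 645 CPM in unexposed *Wt*, 796, 678 and 659 CPM in exposed *Wt*, 729, 767 and 816 CPM in unexposed *Hif1a*+/- and 629, 527 and 606 CPM in exposed *Hif1a*+/-. All 3 exposed *Hif1a*+/- libraries lay below the other 9, with the nearest of those at 645 CPM. The share of all genes with this pattern is not given. Of all genes, 13.2% had the 3 exposed *Hif1a*+/- libraries below the 3 unexposed *Hif1a*+/- ones. The group means were 734 ± 80.3 (SD, n = 3), 711 ± 74.4, 771 ± 43.7 and 587 ± 53.2 CPM. Against unexposed *Hif1a*+/- the log2 difference was −0.39 (SE 0.11, 95% interval −0.62 to −0.16), a level of 0.762 times, with an edgeR adjusted P of 0.266, a DESeq2 adjusted P of 0.0751 and, with no filter on low counts, an edgeR adjusted P of 0.0465; over all alternatives that kept every library or left out more than 1, the adjusted P ran from 0.0429 to 0.711. Against unexposed *Wt* it was −0.32 (SE 0.11, edgeR adjusted P = 0.475), and against exposed *Wt* it was −0.28 (SE 0.11, edgeR adjusted P = 0.862). These 3 comparisons share the exposed *Hif1a*+/- libraries. *Mylk3* overlaps *AA672651* on the opposite strand, as *Ttn*, *Myom2*, *Des* and *Cryab* overlap *Gm13938*, *Gm15678*, *Gm15179* and *Hspb2*. *Tnni3* and *Xirp1* overlap *Dnaaf3* and *Cx3cr1* on the same strand, and some other members overlap genes too. Tags tallied as ambiguous between genes, 3.24% to 3.49% per library, were not counted. With the strand setting of the counting not given, it is not known how tags of opposite-strand pairs were assigned. For *Mylk3*, exposure in *Wt* gave −0.05 (SE 0.11) and genotype in unexposed animals gave 0.07 (SE 0.11), neither at the unadjusted level. The interaction, which tests whether exposure acted differently in the 2 genotypes, was −0.35 (SE 0.15, edgeR adjusted P = 0.998). The study lists *Mylk3* among genes taken from the same libraries, so its standing out in these tables is not independent of that list. The study also lists RT-qPCR primers for *Mylk3* and reports RT-qPCR of a selected set of genes in more animals per group. Those values are not among the data used here.

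The *Mylk3* difference under exposure in *Hif1a*+/- kept an unadjusted edgeR P under 0.05 whichever of the 12 libraries was left out, with log2 differences from −0.44 to −0.31. The DESeq2 call was lost without any 1 of the 3 unexposed *Hif1a*+/- libraries and without exposed *Hif1a*+/- library 72 or 77, its adjusted P running from 0.0359 to 0.389. Against unexposed *Wt*, the unadjusted level was missed without unexposed *Wt* library 42 and without exposed *Hif1a*+/- library 72, and held in the other 10 such fits. With libraries 25 and 72 both left out, the difference was −0.31 (edgeR adjusted P = 0.547) against unexposed *Hif1a*+/- and −0.23 (edgeR adjusted P = 0.942) against unexposed *Wt*. The unadjusted level was thus held in the first comparison and not in the second.

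*Mylk3* has 2 annotated starts in the RefSeq promoter table (build GRCm38.p6), and the 250 bases before each are shown since this gene carries the difference above. The outer start lies further 5′ on the minus strand. Capitals mark the letters AGATAA (bound by GATA factors) or CATTCC (the MCAT element bound by TEAD factors) on either strand.
Mylk3, outer start, chr8:85381042-85381291, minus strand: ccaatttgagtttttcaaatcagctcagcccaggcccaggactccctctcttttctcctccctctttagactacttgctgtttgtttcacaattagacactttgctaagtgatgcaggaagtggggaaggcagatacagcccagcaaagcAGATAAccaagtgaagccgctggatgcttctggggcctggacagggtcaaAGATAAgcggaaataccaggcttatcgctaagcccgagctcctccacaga
Mylk3, inner start, chr8:85365325-85365574, minus strand: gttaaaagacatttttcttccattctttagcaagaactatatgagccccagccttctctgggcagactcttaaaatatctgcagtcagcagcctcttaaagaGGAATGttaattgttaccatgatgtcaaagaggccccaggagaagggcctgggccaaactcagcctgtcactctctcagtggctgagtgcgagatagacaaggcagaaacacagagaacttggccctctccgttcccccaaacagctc
The outer window holds AGATAA at 2 places, beginning 100 and 50 bases before the start, and the inner window holds CATTCC on the opposite strand, beginning 148 bases before the start. The 3′ tags do not tell which start was used.

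**Figure D2:**
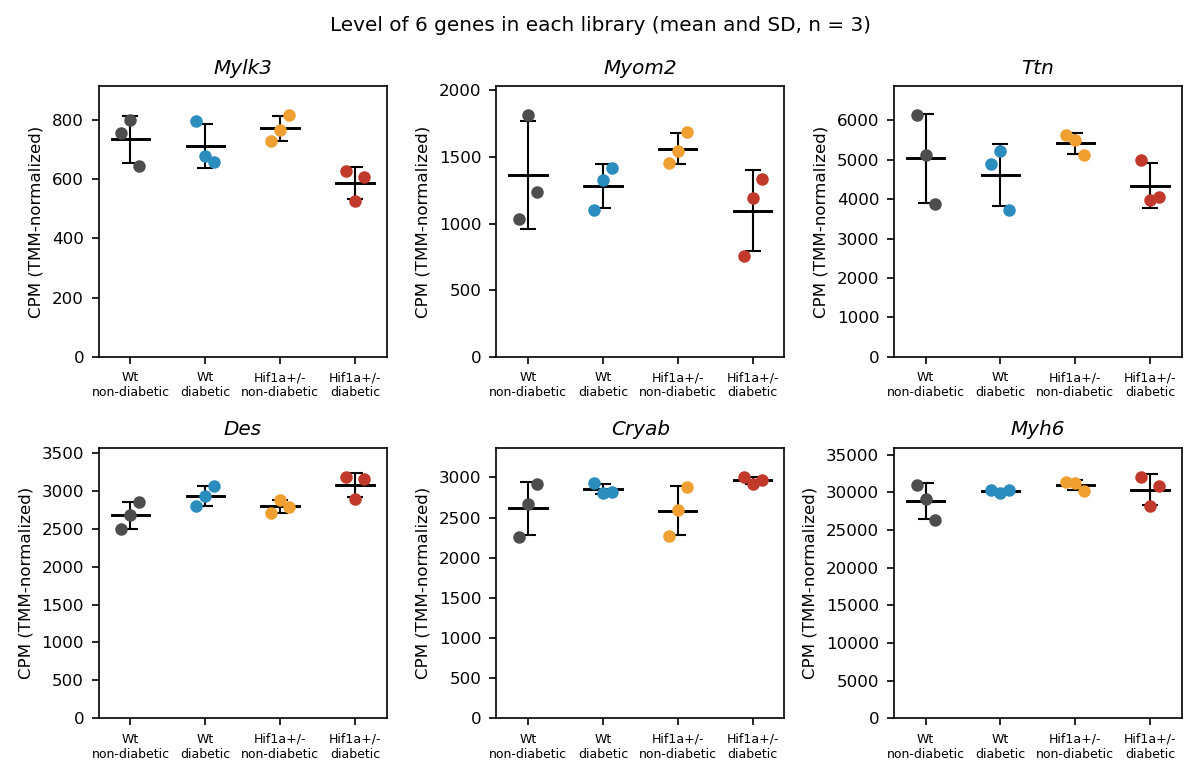
CPM of 6 genes in each of the 12 libraries (points, 3 per group) with the group mean and SD (bars); each panel has its own axis. The 3 exposed Hif1a+/- points of *Mylk3* (527 to 629) lie below all other points, while *Ttn* and *Myom2* separate the unexposed from the exposed Hif1a+/- libraries and not exposed Hif1a+/- from either Wt group.

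Among the other thick filament and M-band genes, the M-band crosslinker *Myom2* and the giant spring protein titin had lower counts in exposed than in unexposed *Hif1a*+/-. *Myom2* (myomesin 2, chr8:15057653-15133541) had 1036, 1814 and 1237 CPM in unexposed *Wt*, 1102, 1329 and 1420 in exposed *Wt*, 1451, 1546 and 1684 in unexposed *Hif1a*+/- and 755, 1195 and 1337 in exposed *Hif1a*+/-. The 2 *Hif1a*+/- groups did not overlap, while the widest range of any group, that of unexposed *Wt*, covered all but the lowest of the 6 *Hif1a*+/- values. The log2 difference in *Hif1a*+/- was −0.51 (SE 0.21, edgeR adjusted P = 0.385), and against unexposed *Wt* it was −0.31 (SE 0.21, edgeR adjusted P = 0.648). Without libraries 25 and 72 the values were −0.57 (edgeR adjusted P = 0.555) and −0.54 (edgeR adjusted P = 0.906), both at the unadjusted level. With no filter on low counts the first comparison had an edgeR adjusted P of 0.00853, in a range from there to 0.932 over the alternatives that kept every library or left out more than 1.

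*Ttn* (chr2:76703980-76982547, minus strand) had 6137, 5111 and 3881 CPM in unexposed *Wt* and 4899, 5213 and 3717 in exposed *Wt*. It had 5641, 5498 and 5119 in unexposed *Hif1a*+/- and 4998, 3968 and 4066 in exposed *Hif1a*+/-. The 2 *Hif1a*+/- groups did not overlap, whereas unexposed *Wt* alone spanned nearly the whole range. The log2 difference in *Hif1a*+/- was −0.32 (SE 0.16, edgeR adjusted P = 0.448), and against unexposed *Wt* it was −0.22 (SE 0.16, edgeR adjusted P = 0.689). Without libraries 25 and 72, the second became 0.01 (edgeR adjusted P = 0.996). The window before the *Ttn* start is shown because it holds a MEF2 motif (capitals, beginning 166 bases before the start), the binding letters of the myocyte enhancer factor 2 family.
Ttn, chr2:76982548-76982797, minus strand: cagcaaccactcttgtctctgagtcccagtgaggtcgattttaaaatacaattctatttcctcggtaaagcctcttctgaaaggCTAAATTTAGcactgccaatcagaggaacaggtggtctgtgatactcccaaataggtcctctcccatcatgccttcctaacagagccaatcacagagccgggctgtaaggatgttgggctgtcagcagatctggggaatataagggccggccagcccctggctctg

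*Myh6* had 31049, 29176 and 26386 CPM in unexposed *Wt*, 30320, 29940 and 30320 in exposed *Wt*, 31429, 31221 and 30227 in unexposed *Hif1a*+/- and 32118, 28189 and 30848 in exposed *Hif1a*+/-. All 4 groups overlapped, and the log2 differences were −0.03 (95% interval −0.23 to 0.17) under exposure in *Hif1a*+/- and 0.07 (−0.13 to 0.27) for exposed *Hif1a*+/- against unexposed *Wt*. *Myh6* shares long stretches with *Myh7*, as *Actc1* does with *Acta1*, and tags that matched both copies were not counted. *Mybpc3* had 5774, 5953 and 5642 CPM in unexposed *Wt* and 5400, 5429 and 5399 in exposed *Wt*. These groups did not overlap, but the log2 difference was small, −0.10 (SE 0.08). It was the only member whose 3 exposed *Wt* libraries were all lower than unexposed *Wt*, a pattern found in 3.4% of all genes, and 0 members were all higher, where 2.14% of genes were. The ventricular light chains *Myl2* and *Myl3* had log2 differences of 0.18 (SE 0.15) and 0.12 (SE 0.14) under exposure in *Hif1a*+/-, and *Myom1*, the other myomesin, had −0.15 (SE 0.10). Over all 8 genes of the group the median log2 difference was −0.12 with 6 negative under exposure in *Hif1a*+/-, and −0.02 with 4 negative under exposure in *Wt*.

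No thin filament gene reached an unadjusted edgeR P of 0.05 in any comparison. *Actc1*, cardiac α-actin, had 15524, 16640 and 15393 CPM in unexposed *Wt*, 16243, 16674 and 12813 in exposed *Wt*, 12941, 16324 and 17139 in unexposed *Hif1a*+/- and 17717, 13778 and 14897 in exposed *Hif1a*+/-. The groups overlapped throughout, and the log2 difference under exposure in *Hif1a*+/- was −0.00 (95% interval −0.29 to 0.29). *Tnni3*, the inhibitory subunit of troponin, had 4784, 5573 and 5687 CPM in unexposed *Hif1a*+/- and 5954, 5946 and 6370 in exposed *Hif1a*+/-. These did not overlap, with a log2 difference of 0.19 (SE 0.12, edgeR adjusted P = 0.527), but the 3 exposed *Wt* libraries, at 6507, 5253 and 7156 CPM, spread over a wider range than both. The calcium-binding troponin *Tnnc1* and the tropomyosin-binding *Tnnt2* had 0.11 (SE 0.13) and 0.09 (SE 0.11), and tropomyosin, *Tpm1*, had −0.02 (SE 0.12). *Lmod2*, leiomodin 2, which elongates thin filaments at the pointed end that *Tmod1* caps, was the only member with all 3 unexposed *Hif1a*+/- libraries (745, 821 and 707 CPM) above all unexposed *Wt* libraries (601, 668 and 673 CPM). Its log2 difference was 0.23 (SE 0.13, edgeR adjusted P = 0.9999). Of all genes, 2.55% were separated upward and 2.26% downward in that comparison, where 0 members were separated downward. *Nebl*, encoding nebulette, had the lowest value of the group under exposure in *Hif1a*+/-, −0.30, with an SE of 0.25.

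The windows before the starts of *Actc1* and *Myl3* are shown because both hold a CArG box, the binding letters of serum response factor. It begins 47 bases before the *Actc1* start and 85 bases before the *Myl3* start, and the *Myl3* window also holds CATTCC on 1 strand or the other at 177 and 149 bases. Capitals mark these letters.
Actc1, chr2:114052876-114053125, minus strand: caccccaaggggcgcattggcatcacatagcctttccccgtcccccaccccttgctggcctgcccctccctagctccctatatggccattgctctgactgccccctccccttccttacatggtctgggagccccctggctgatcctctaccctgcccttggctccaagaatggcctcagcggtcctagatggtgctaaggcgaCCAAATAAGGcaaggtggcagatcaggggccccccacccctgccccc
Myl3, chr9:110763428-110763677, plus strand: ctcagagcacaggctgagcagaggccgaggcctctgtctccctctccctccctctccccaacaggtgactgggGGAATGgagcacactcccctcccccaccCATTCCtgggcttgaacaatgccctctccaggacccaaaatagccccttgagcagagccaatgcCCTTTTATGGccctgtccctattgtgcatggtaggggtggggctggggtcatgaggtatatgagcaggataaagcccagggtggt
Their levels overlapped between all groups compared.

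Z-disc genes likewise had no member at an unadjusted edgeR P under 0.05. *Actn2*, α-actinin 2, which crosslinks actin at the Z-disc, had 2870, 2892 and 2912 CPM in unexposed *Wt*, 2831, 3071 and 2724 in exposed *Wt*, 2662, 2884 and 2955 in unexposed *Hif1a*+/- and 2972, 2713 and 2791 in exposed *Hif1a*+/-. The exposure difference in *Hif1a*+/- was −0.00 with a 95% interval of −0.18 to 0.17, among the narrowest of the 32. *Tcap*, whose product caps titin at the Z-disc, had the largest positive log2 values of all members, 0.42 (SE 0.34) under exposure in *Hif1a*+/-, 0.43 (SE 0.34) under exposure in *Wt* and 0.53 (SE 0.34) for exposed *Hif1a*+/- against unexposed *Wt* (edgeR adjusted P = 0.632). With no filter on low counts the last of these had an edgeR adjusted P of 0.0223. Its libraries had 1516, 972 and 1414 CPM in unexposed *Wt*, 1234, 1177 and 2857 in exposed *Wt*, 2079, 1228 and 903 in unexposed *Hif1a*+/- and 1473, 2209 and 1961 in exposed *Hif1a*+/-. All 4 groups overlapped, and the spread within groups was as large as the differences between them. The remaining 7 had log2 differences from −0.16 (*Nexn*, nexilin) to 0.15 (*Csrp3*, the muscle LIM protein) under exposure in *Hif1a*+/-. Over the 9 genes the median was 0.05 with 6 positive in that comparison and 0.06 with 8 positive under exposure in *Wt*.

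Desmin and its chaperone αB-crystallin had higher counts in exposed *Hif1a*+/- LVs. *Des* (chr1:75360329-75368579, plus strand), which forms the intermediate filaments that tie Z-discs together, had 2499, 2674 and 2849 CPM in unexposed *Wt*, 2803, 2936 and 3063 in exposed *Wt*, 2712, 2883 and 2786 in unexposed *Hif1a*+/- and 3187, 2891 and 3153 in exposed *Hif1a*+/-. The exposed *Hif1a*+/- libraries lay above both unexposed groups, by a narrow gap (2891 against 2883 CPM), and overlapped exposed *Wt*. The log2 difference was 0.20 (SE 0.08, 95% interval 0.02 to 0.38, edgeR adjusted P = 0.538) against unexposed *Wt* and 0.14 (SE 0.08, edgeR adjusted P = 0.507) against unexposed *Hif1a*+/-. Exposure averaged over both genotypes gave 0.14 (SE 0.06, edgeR adjusted P = 0.427). Against unexposed *Wt*, the unadjusted level was held in 8 of 12 fits that left out 1 library, and without libraries 25 and 72 the difference was 0.20 and missed that level. The window before the *Des* start is shown beside these values and holds none of the full motifs searched for MEF2, the CArG box, MCAT, GATA factors (AGATAA) or the TATA box.
Des, chr1:75360042-75360291, plus strand: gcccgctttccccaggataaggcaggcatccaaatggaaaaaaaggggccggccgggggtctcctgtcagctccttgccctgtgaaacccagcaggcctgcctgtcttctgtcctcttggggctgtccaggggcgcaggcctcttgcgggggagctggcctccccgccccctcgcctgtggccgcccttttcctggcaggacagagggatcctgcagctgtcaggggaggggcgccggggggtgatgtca

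*Cryab* had 2253, 2671 and 2913 CPM in unexposed *Wt*, 2933, 2809 and 2823 in exposed *Wt*, 2275, 2591 and 2884 in unexposed *Hif1a*+/- and 3010, 2923 and 2962 in exposed *Hif1a*+/-. Exposed *Hif1a*+/- libraries again lay above both unexposed groups, while library 25 had the lowest value of all. The log2 differences were 0.20 (SE 0.11, edgeR adjusted P = 0.466) within *Hif1a*+/- and 0.18 (SE 0.11, edgeR adjusted P = 0.613) against unexposed *Wt*, and the second was 0.10 without libraries 25 and 72. The Xin-repeat genes of the intercalated disc had −0.30 (SE 0.20) for *Xirp1* and −0.13 (SE 0.15) for *Xirp2* under exposure in *Hif1a*+/-.

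Members separated in all 3 libraries were counted in the remaining comparisons as well. Under exposure in *Hif1a*+/-, 3 members (*Tnni3*, *Des* and *Cryab*; 9.38%) were higher in every library, where 11.2% of all genes were, and 3 (*Mylk3*, *Ttn* and *Myom2*; 9.38%) were lower, where 13.2% were. For exposed *Hif1a*+/- against unexposed *Wt*, 2 were higher (7.47% of all genes) and *Mylk3* alone was lower (7.11%). For exposed *Hif1a*+/- against exposed *Wt*, 0 were higher (4.32%) and *Mylk3* alone was lower (3.62%). Sarcomere genes were thus not separated more often than all genes in the comparison with most separated genes.

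**Figure D3:**
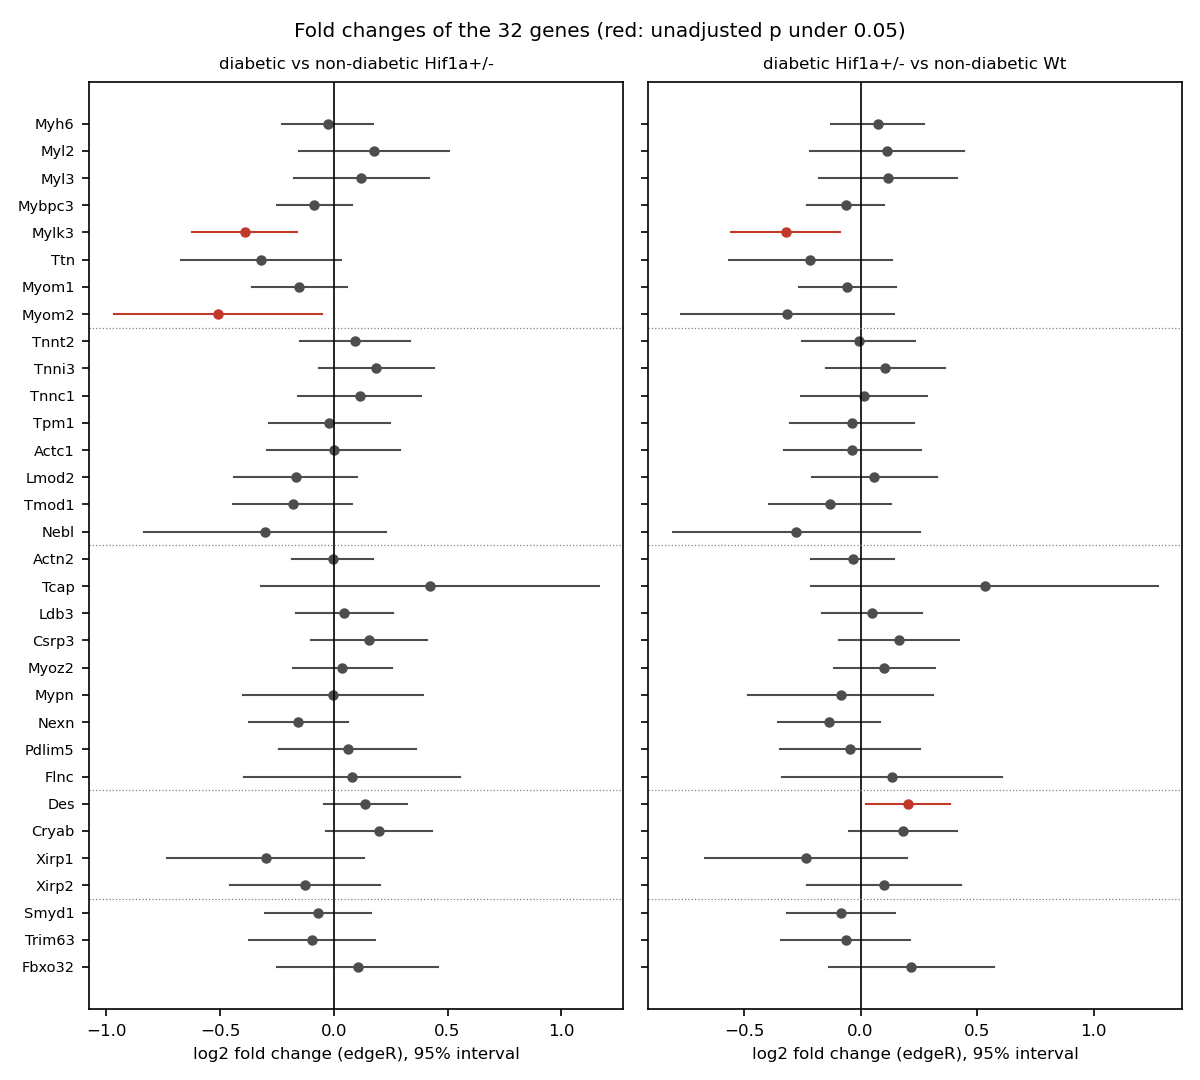
Log2 differences with 95% intervals (edgeR) of the 32 genes, grouped by role, for exposure in Hif1a+/- and for exposed Hif1a+/- against unexposed Wt. Intervals of *Mylk3* (−0.62 to −0.16 in the first panel) lie below 0 in both, that of *Myom2* only in the first, that of *Des* (0.02 to 0.38) lies above 0 only in the second, and all other intervals include 0.

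The genes of assembly and turnover had intervals that include 0 in all 8 comparisons when all libraries entered with no covariate. *Smyd1*, a methyltransferase and myosin chaperone cofactor, had 757, 693 and 587 CPM in unexposed *Wt*, 663, 706 and 636 in exposed *Wt*, 611, 698 and 707 in unexposed *Hif1a*+/- and 711, 597 and 612 in exposed *Hif1a*+/-. *Trim63*, encoding the ubiquitin ligase MuRF1, had 237, 246 and 323 CPM, then 242, 212 and 270, then 281, 264 and 279, and then 294, 234 and 243 in the same order of groups. *Fbxo32*, encoding the ubiquitin ligase subunit atrogin-1, had 138, 124 and 204, then 153, 148 and 174, then 201, 143 and 160, and then 192, 177 and 172. The 4 groups overlapped for all 3 genes. Under exposure in *Hif1a*+/- the log2 differences were −0.07 (SE 0.11), −0.10 (SE 0.13) and 0.10 (SE 0.16), respectively.

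The sizes that these data could show differ by gene. Under exposure in *Hif1a*+/-, 24 of the 32 genes had a 95% interval that lay wholly between −0.5 and 0.5 on the log2 scale, and 24 did for exposed *Hif1a*+/- against unexposed *Wt*, 26 for exposure in *Wt* and 27 for genotype in unexposed animals. The median log2 difference over the 32 genes was −0.00 under exposure in *Hif1a*+/- (−0.01 over all genes), −0.02 for exposed *Hif1a*+/- against unexposed *Wt* (−0.00), 0.04 under exposure in *Wt* (0.01) and 0.02 for genotype in unexposed animals (0.00). The median size of a difference regardless of sign was 0.124 under exposure in *Hif1a*+/- (0.149 over all genes) and 0.104 for exposed *Hif1a*+/- against unexposed *Wt* (0.135). It was 0.0922 under exposure in *Wt* (0.0909) and 0.0635 for genotype in unexposed animals (0.0699). Of the 14706 genes only 949 were at least as abundant as the lowest member, so the 2 sets differ in abundance. Exposed *Hif1a*+/- had the lowest mean of the 4 groups for 12 of the 32 genes and the highest for 8, against 10 and 3 for unexposed *Wt*. Unexposed *Hif1a*+/- had the lowest for 7 and the highest for 12, and exposed *Wt* the lowest for 3 and the highest for 9. The same counts over all genes are not given.

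The differences varied with transcript length. Under exposure in *Hif1a*+/-, the Spearman correlation across the 32 genes between the log2 difference and the length of the longest annotated transcript was −0.545, against −0.321 over 14671 genes and −0.553 over the 949 genes at least as abundant as the lowest member. The 16 shorter members had a median log2 difference of 0.08 and the 16 longer ones of −0.08, divided at 3240 bases. For exposed *Hif1a*+/- against unexposed *Wt* the correlation over the members was −0.361, for exposure in *Wt* −0.269 and for genotype in unexposed animals 0.422. These values describe genes of the same libraries, which are not independent of each other. Short-transcript members such as *Cryab* (1117 bases) and *Tnni3* (912 bases) stood on the higher side and *Ttn* (106824 bases) on the lower.

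Single libraries carried the same tendency. The correlation between length and a library's deviation from the mean of all libraries ranged over the members from −0.703 to 0.451 in exposed *Wt* and from −0.681 to 0.588 in unexposed *Wt*, so that libraries of a single group lay at both ends. It was 0.380, 0.498 and 0.262 in unexposed *Hif1a*+/- and 0.260, −0.472 and −0.537 in exposed *Hif1a*+/-. A length score was computed for each library as the same correlation over all genes tested outside the 32. It was 0.16 to 0.27 in unexposed *Hif1a*+/- and −0.25 to −0.13 in exposed *Hif1a*+/-, with no overlap, while it ran from −0.37 to 0.33 in unexposed *Wt* and from −0.37 to 0.26 in exposed *Wt*. With this score as a covariate, a choice made after the data were seen, *Mylk3* (3696 bases) had −0.28 (SE 0.12, edgeR adjusted P = 0.668, DESeq2 adjusted P = 0.711) under exposure in *Hif1a*+/- and −0.24 (SE 0.11, edgeR adjusted P = 0.808) for exposed *Hif1a*+/- against unexposed *Wt*. *Ttn* had 0.03 and 0.04, and *Myom2* (5075 bases) had −0.55 (SE 0.27) in the first. *Des* had 0.16 (SE 0.08) in the second. Under exposure in *Hif1a*+/- the score took *Des* to 0.07 (SE 0.09), *Cryab* to 0.09 (SE 0.11) and *Tnni3* to −0.01 (SE 0.10), and it took *Cryab* to 0.12 (SE 0.10) against unexposed *Wt*. With the score, 4 members (12.5%) were at the unadjusted level under exposure in *Hif1a*+/-, where 6.89% of all genes were: *Mylk3*, *Trim63* at −0.31 (SE 0.11, edgeR adjusted P = 0.58), *Flnc*, an actin crosslinker of the Z-disc, at 0.48 (SE 0.19, edgeR adjusted P = 0.638) and *Mypn*, encoding myopalladin, at 0.34 (SE 0.15, edgeR adjusted P = 0.718). Against unexposed *Wt* there were 2 (6.25%), *Mylk3* and *Flnc* at 0.40 (SE 0.17, edgeR adjusted P = 0.768), where 5.91% of all genes were. The *Mylk3* interaction, −0.27 (SE 0.14) with the score, was not at that level. The differences of *Mylk3*, *Des* and *Cryab* were smaller with the score, the DESeq2 call of *Mylk3* was lost, and *Ttn* and *Tnni3* were near 0. The score and the exposure of *Hif1a*+/- animals cannot be fully told apart, since the 2 groups did not overlap in it.

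**Figure D4:**
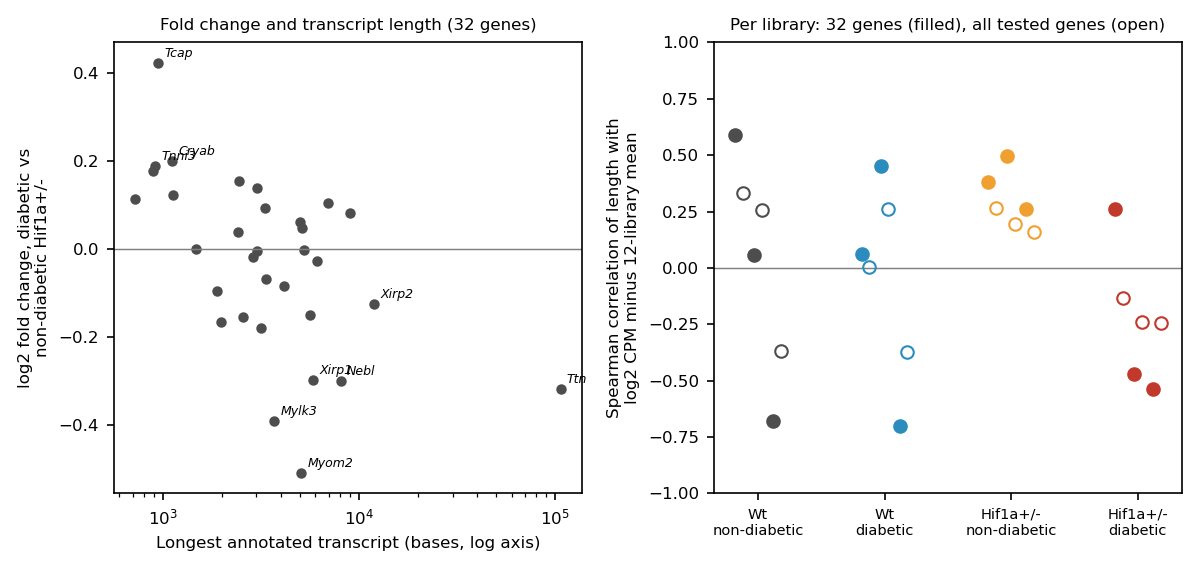
Left, log2 difference under exposure in Hif1a+/- (edgeR) against the longest annotated transcript in bases (log axis) for the 32 genes. Right, the correlation of length with each library's deviation from the mean of the 12 libraries, for the 32 genes (filled) and all genes tested (open). Points in the left panel fall from left to right (Spearman −0.545). Open points of the exposed and unexposed Hif1a+/- libraries do not overlap, while those of both Wt groups span from about −0.37 to above 0.26. Filled points span −0.681 to 0.588 in unexposed Wt and −0.703 to 0.451 in exposed Wt.

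Markers of other cell types differed between the same groups. Of 10 fibroblast markers, 10 had higher values in exposed than in unexposed *Hif1a*+/- (median log2 difference 0.44, 5 at an unadjusted edgeR P under 0.05), and of 8 macrophage markers, 8 did (median 0.83, 7 at that level). Of all genes, 12.0% were at that level. The study lists the markers *Col3a1*, *Dpt*, *Pi16*, *Mfap5*, *C1qa*, *C1qb*, *Mrc1* and *Lyz2* as changed in exposed *Hif1a*+/- from the same libraries. These marker counts are therefore not independent of that list. Fibroblast markers summed to 1775, 2383 and 2428 CPM in exposed *Hif1a*+/- and to 1449 to 2066 CPM in the other groups, and macrophage markers to 585, 472 and 696 CPM against 233 to 529 CPM. The 14 myocyte genes from outside the sarcomere had a median of 0.03 in that comparison, with 8 positive, and the median over the 32 sarcomere genes was −0.00. The part of the fibroblast and macrophage signals in the values of *Mylk3*, *Myom2*, *Des* and *Cryab* was not tested.

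A further list held 70 other sarcomere genes, of which 65 were tested. In edgeR, 0 had an adjusted P under 0.1 in any comparison, where 0.0% of all genes did. DESeq2 called 1, *Ccdc141*, under exposure in *Hif1a*+/- (1.44% of all genes) and again under exposure averaged over genotypes (1.45%). The limma-voom test called 3 under exposure in *Hif1a*+/- (*Ccdc141*, *Myl9* and *Myoz1*), where it called 6.37% of all genes. At an unadjusted edgeR P under 0.05, exposure in *Hif1a*+/- gave 1 higher and 3 lower (6.15% of 65, against 12.0% of all genes), and exposed *Hif1a*+/- against unexposed *Wt* gave 0 higher and 3 lower (4.62% against 8.85%). Exposed *Hif1a*+/- against exposed *Wt* gave 2 higher and 3 lower (7.69% against 5.35%). *Ccdc141*, encoding a coiled-coil protein whose gene lies beside *Ttn*, had 151, 156 and 122 CPM in unexposed *Wt*, 140, 131 and 124 in exposed *Wt*, 157, 146 and 145 in unexposed *Hif1a*+/- and 110, 116 and 113 in exposed *Hif1a*+/-. Like *Mylk3*, its 3 exposed *Hif1a*+/- libraries lay below the other 9, a pattern whose share of all genes is not given. The log2 difference under exposure in *Hif1a*+/- was −0.40 (SE 0.09, edgeR adjusted P = 0.206, DESeq2 adjusted P = 0.0195). The study lists this gene from the same libraries too. *Myl9*, a smooth muscle light chain, had −0.44 (SE 0.17, edgeR adjusted P = 0.363) in that comparison at 14.6 to 29.5 CPM, beside 7 smooth muscle and pericyte markers with a median of −0.25, of which 3 were positive and 2 were at the unadjusted level. Of these markers, *Myh11* is on the study's list from the same libraries too. *Tmod4*, the tropomodulin of skeletal muscle, had −0.79 (SE 0.21, edgeR adjusted P = 0.822) for exposed *Hif1a*+/- against exposed *Wt*. In that comparison *Mybpc2*, the fast skeletal myosin-binding protein C, had 0.49 (SE 0.22, edgeR adjusted P = 0.862) and *Klhl40*, a kelch protein of the thin filament, had 0.34 (SE 0.13, edgeR adjusted P = 0.862). *Myoz1*, the skeletal relative of *Myoz2*, was the gene on the higher side under exposure in *Hif1a*+/-, at 1.00 (SE 0.34, edgeR adjusted P = 0.324) and at most 0.668 CPM in any library. The β-myosin heavy chain *Myh7* had 0.23 (SE 0.12, edgeR adjusted P = 0.594) for exposed *Hif1a*+/- against unexposed *Wt*, and skeletal α-actin, *Acta1*, had −0.46 (SE 0.53). *Ankrd1*, a stress-responsive partner of titin, had 0.12 (SE 0.19).

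The promoter letters were counted over 36 entries of the 26 members found in the RefSeq table, each 250 bases long, beside all 32851 entries of the table, on both strands. *Myom2*, *Tcap*, *Nexn*, *Cryab*, *Xirp1* and *Fbxo32* had no entry. A CArG box was found in 16.7% of member entries and 1.47% of all entries (*Myl3*, *Myom1*, *Actc1*, *Nebl* and *Ldb3*), and a MEF2 motif in 11.1% and 2.92% (*Mybpc3*, *Ttn*, *Myoz2* and *Xirp2*). CATTCC was found in 30.6% of member entries and 12.6% of all, AGATAA in 16.7% and 9.99%, TATAAA in 13.9% and 12.4%, and CANNTG (the E-box) in 69.4% and 66.2%. The core letters of the hypoxia response element, ACGTG or GCGTG, were found in 25.0% and 38.6%, and GGGCGG (the GC box) in 22.2% and 32.7%. These shares were not tested, and they rest on few entries: 4 for MEF2, 6 for the CArG box, of which 2 are overlapping windows of *Ldb3* that hold the same box, and 9 for the hypoxia element. *Mylk3*, the member with the most regular difference, holds neither a CArG box nor a MEF2 motif in either window. The A/T-rich letters of MEF2, CArG and TATAAA can overlap, as can CANNTG and ACGTG. Several entries belong to the same gene, and a match describes letters and not a bound site.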

How the data were processed

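LV RNA from 12 animals was sequenced as 3′-seq libraries. The authors trimmed reads with Trimmomatic, removed ribosomal and mitochondrial reads with SortMeRNA, aligned the rest to GRCm38 with STAR 2.5.2b and counted them per gene of GENCODE M8 with htseq-count in union mode. The deposited values used here are these raw counts of 46983 genes. Normalised files that the authors made with DESeq2 were not used. Rows that name no gene were left out of library sizes, among them multi-mapped reads. These came to 12.4% to 17.0% of all reads tallied, with and without a gene, and so touch genes with near-identical copies. Symbols and positions came from GENCODE M21 (46488 genes matched), and transcript length is that of the longest transcript there.

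Groups came from the sample labels. Counts were filtered with filterByExpr, scaled by the trimmed mean of M values and tested with edgeR 4.0.16 (quasi-likelihood test, 4 groups in 1 fit, 8 residual degrees of freedom, common biological coefficient of variation 13.7%) in R 4.3.3. The comparisons were 5 between groups, the interaction and the averaged effects of exposure and genotype. Adjustment followed Benjamini and Hochberg over all genes tested, and 0.1 was the threshold, as in the study. DESeq2 1.42.0 and limma 3.58.1 (voom) served as alternatives. CPM values use the scaled library sizes. Each test was checked on simulated counts first. Depth leaves at least 2218 counts per library for each of the 32 genes, so that spread between animals and not counting error sets their precision. Other genes whose differences are given had fewer, such as *Myoz1* with a lowest count of 4.

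Values in every library are given for members past the threshold by edgeR or DESeq2, for the 3 members with the smallest P in each of the 2 comparisons of exposed *Hif1a*+/- with an unexposed group, for the member with most counts in each role group, for *Mylk3*, *Trim63* and *Fbxo32*, and for *Hif1a*. *Tcap*, *Tnni3*, *Lmod2*, *Mybpc3*, *Flnc*, *Mypn*, *Ccdc141*, *Myl9*, *Tmod4*, *Mybpc2*, *Klhl40* and *Myoz1* were chosen after their values were seen. The members, the gene lists and the tests were chosen with earlier results of these data known.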

Additional observations from a re-analysis of the deposited data

How the results depend on the processing

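Over 38 alternatives, 24 of which left out 1 library, the count of members past an adjusted P of 0.1 differed from 0 in 3 comparisons. Under exposure in *Hif1a*+/- it was 1 by DESeq2, 1 by limma-voom, 2 with no filter on low counts and 0 to 1 with 1 library left out. For exposed *Hif1a*+/- against unexposed *Wt* it was 1 with no filter and 0 to 2 with 1 library left out, the 2 being *Mylk3* and *Fbxo32* by DESeq2 without unexposed *Wt* library 89. For exposure averaged over genotypes it was 2 with no filter and 0 to 2 with 1 library left out, the 2 being *Mylk3* and *Ttn* by DESeq2 without that same library; *Mylk3* was called without exposed *Wt* library 50 and *Tnni3* without library 7. The share of all genes called with 1 library left out is not given, so those counts cannot be read against it. The cause was not tested. The median log2 difference over the members under exposure in *Hif1a*+/- was 0.052 by edgeR and 0.054 by DESeq2 without libraries 25 and 72, and −0.080 to 0.055 with 1 library left out. For exposed *Hif1a*+/- against unexposed *Wt* it was 0.034 by DESeq2 without both libraries, and −0.043 to 0.046 with 1 left out. For the interaction it was −0.07 with the length score by either tool, and −0.082 to 0.000974 with 1 left out. For 11 named members, 1005 values were compared: *Mylk3* in all 8 comparisons, the others only in exposed *Hif1a*+/- against each unexposed group. Of these values, 6 changed sign by more than a standard error allows, all of *Ttn*. They were 0.029 and 0.031 (edgeR, DESeq2) with the length score under exposure in *Hif1a*+/-. For exposed *Hif1a*+/- against unexposed *Wt* they were 0.041 and 0.043 with the score and 0.015 and 0.021 without libraries 25 and 72. Among the 1005, a further 85 sign changes were of values within 1 SE of 0. Comparisons outside this count held sign changes too, such as *Ttn* under exposure averaged over genotypes (−0.22, and 0.000377 with the score). No paired analysis was possible because the groups compared share no animal numbers and the replicate numbers in the labels mark the groups themselves. With 3 animals per group, differences under a half-width of about 0.27 on the log2 scale were mostly not detectable.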
